A study of Homo sapiens with 8 samples.

Results

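The receptor tyrosine kinase RET, its 4 GFRA co-receptors and the 4 ligands of the GDNF family were followed over 8 one-colour gene expression arrays. They were chosen by gene name, with earlier results of these data known, and comprised 14 of 50599 probes and 9 of 36337 gene names on the array. All 9 names matched a current RefSeq symbol. RNA came from 2 thyroid cell lines. Nthy-ori 3-1 (ORI) is a non-tumoral follicular line that was immortalized. TT comes from a medullary thyroid carcinoma, the tumor of the calcitonin-secreting C cells, and carries an activating RET mutation. ORI cells received pre-miR-375, a synthetic precursor of miR-375, or the control reagent (CTL, named pre-miR-CTL in the study's methods). TT cells received antagomiR-375, an inhibitor of miR-375, or a control (CTL). The labels do not name the TT control reagent, and the methods name an antagomiR-CTL for transfections but only pre-miR-CTL for the arrays, so what the TT comparison holds constant is not fully known. Each of the 4 groups had 2 arrays, taken 48 h after lipid transfection at 5 nM in ORI and 20 nM in TT per the sample labels. One line stands for each cell type, and the labels do not say whether the 2 arrays of a group came from separate cultures, although the methods speak of biological replicates. The p-values then measure only the spread between these arrays.

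RET sits in the plasma membrane and becomes active when a ligand of the GDNF family binds a GPI-anchored GFRA co-receptor, which brings RET molecules together. The preferred pairs are GDNF with GFRA1, NRTN (neurturin) with GFRA2, ARTN (artemin) with GFRA3 and PSPN (persephin) with GFRA4. In the thyroid RET belongs to the C cells, and activating RET mutations cause medullary thyroid carcinoma, in families and in isolated cases.

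The sequences that the results below turn on are the microRNA that was added or inhibited, the stretch of a RET probe that holds letters complementary to it, and GDNF and NRTN probes. They are written 5′ to 3′. Mature miR-375-3p (RefSeq, GRCh38.p14 chr2:219001648-219001669, minus strand) is shown with its seed, bases 2 to 8, in capitals. The RET stretch of 25 bases (hg19 chr10:43622248-43622272, plus strand) lies at the 3′ end of the probe, and its capitals mark the complement of bases 1 to 7 of miR-375-3p.
hsa-miR-375-3p: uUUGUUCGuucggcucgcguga
RET A_33_P3562537, bases 36 to 60: taaaaatgtttctggtctGAACAAA
GDNF A_23_P167683: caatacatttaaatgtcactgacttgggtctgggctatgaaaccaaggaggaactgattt
GDNF A_24_P25544: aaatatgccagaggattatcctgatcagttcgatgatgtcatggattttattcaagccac
NRTN A_23_P90359: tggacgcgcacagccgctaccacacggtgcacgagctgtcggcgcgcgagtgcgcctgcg
These GDNF probes cover hg19 chr5:37815965-37816024 and chr5:37816177-37816236 on the minus strand, and the NRTN probe covers chr19:5828120-5828179 on the plus strand. The search took 3 words on the transcript strand of the probes, and the shortest lies within both others. GAACAAA, the complement of bases 1 to 7, was in 1 of the 14 member probes, the RET probe above, and in 0.775% of all probes. The shorter GAACAA was in the same RET probe and in 2.21% of all probes. The full seed complement CGAACAA was in 0 of the 14 and in 0.0613% of all probes. A probe shows 60 bases of a transcript, so a missing word says nothing of the rest of it, and a match is no proof of a site.

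Values are quantile-normalized log2 signals, so levels are compared between arrays for a probe, never between probes. Whether 2 groups overlap is given as a description only. With 2 arrays against 2, an exact two-sided permutation test gives a p of 0.333 or more. The share of all probes without overlap was not counted. A spot was well above background where the scanner software marked it so. Between 32071 and 37340 spots passed that mark on an array, and 0 were saturated. The RNA integrity number was 8 on both TT control arrays and 9 on the other 6. Of 8 C cell markers on the array, 8 were higher in TT CTL than in ORI CTL (limma, adjusted p at most 0.05), as were 14.8% of all probes. Of 10 follicular markers, PAX8 and FOXE1 were higher in ORI, whereas TG, NKX2-1, DIO1 and DIO2 were higher in TT, and TSHR was not well above background on any array. C cell markers also differed within ORI. They were well above background for 0 of 8 genes on both ORI CTL arrays and for 5 and 6 of 8 on the pre-miR-375 arrays, with summed linear signals of 71.8 and 88.8 against 522 and 588. By a rule of size and direction, a mean log2 change of 0.6 or more with the same sign in both pairs of arrays, 5 of the 8 were higher there and 0 lower, beside 8.38% of all probes higher. None of the 8 had an adjusted p of at most 0.05 in limma, and 3 had an unadjusted p under 0.05. SCG2, a granule protein, was at least 8.60-fold and SYP, a vesicle protein, at least 2.77-fold higher, while CALCA, the calcitonin gene, was higher by 4.21 in one pair and 0.94 in the other. CEACAM5, GRP and INSM1 did not pass the rule in ORI and were not well above background on both arrays of either ORI group. The mean with pre-miR-375 against that in TT CTL was 7.57 and 9.51 for SCG2 and 5.82 and 9.61 for SYP. It was 5.85 and 11.56 for CHGB, 5.02 and 16.85 for CHGA and 6.31 and 18.55 for CALCA. Whether the C cell marker signal in ORI came from RNA of TT or from the ORI cells was not tested. In TT the summed signal lay between 484549 and 543827, and 2 of the 8, CEACAM5 and GRP, were higher with antagomiR-375, beside 5.58% of all probes. Of the 10 follicular markers, 1 (DIO2) was higher with pre-miR-375, near the share of all probes, and 0 passed this rule in TT.

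RET was high in TT and low in ORI. The probe A_33_P3562537 (hg19 chr10:43622213-43622272), designed on NM_020630, the transcript of the short RET9 form, read 13.62 and 13.78 in TT CTL and 6.37 and 5.83 in ORI CTL. All 4 values were well above background, and the lines did not overlap. The difference was 7.60 on the log2 scale (SE 0.253, limma, adjusted p = 2.60e-05), or 195-fold. The second probe, A_23_P202245 (hg19 chr10:43625254-43625313), designed on NM_020975, the transcript of the long RET51 form, read 11.63 and 11.87 in TT CTL. In ORI CTL it read 2.41 and 1.99, not well above background, so that TT was at least 168-fold higher (adjusted p = 1.01e-05). For such probes the bound sets the bright group against, on each dim array, the lowest signal well above background. RET was thus higher in TT by both probes, which differed in whether ORI had a measurable signal. In RNA of a whole culture, fewer cells with a transcript and less of it per cell cannot be told apart.

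Of the 14 member probes, 4 were higher and 5 lower in TT CTL than in ORI CTL at an adjusted p of at most 0.05. Over all probes, 14.8% were higher and 15.3% lower by the same measure. The 9 calls fell on RET, GFRA4 and NRTN, higher in TT, and on GDNF and 1 GFRA1 probe, lower in TT. Sizes depended on the background correction. With normexp or the median signal, which keep low signals up, the log2 differences were 6.53 and 6.65 for RET on NM_020630, 6.83 and 7.11 for GFRA4, and 3.06 and 3.20 for NRTN, smaller than those given here. The fitted values of probes that were dim in a line moved most. With normexp RET on NM_020975 was higher by 5.70 and the 4 GDNF probes had log2 differences between -3.93 and -1.68 in TT. All were still called. These differences are smaller than the bounds given above for RET and below for GDNF, which hold for the processed signal only.

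**Figure D1:**
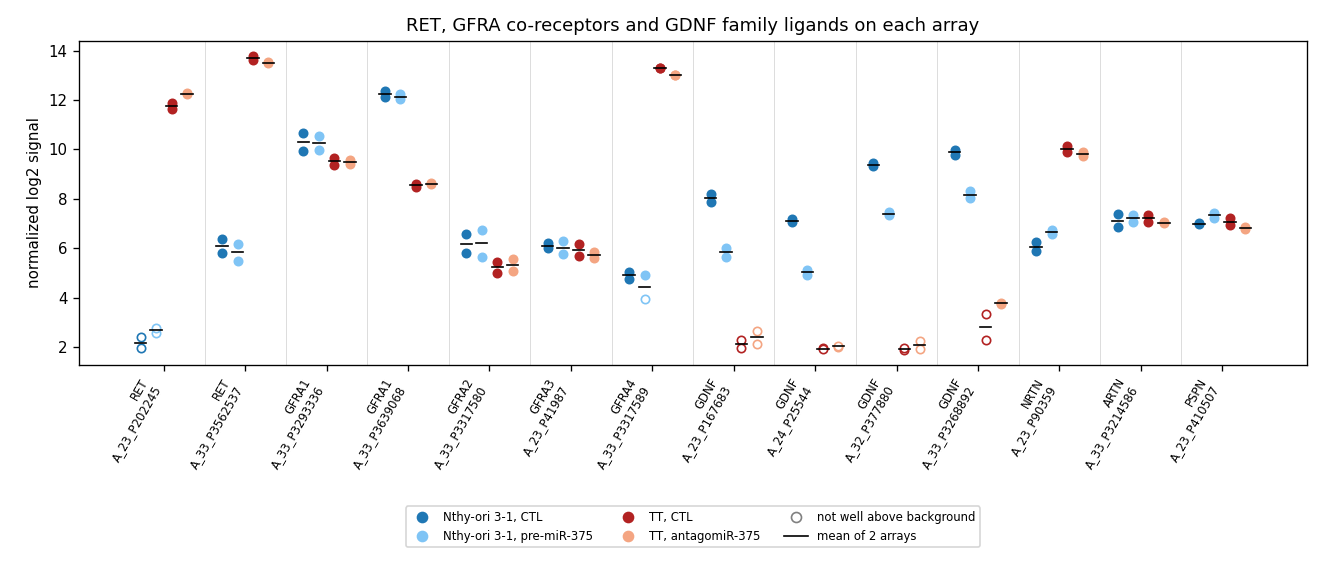
Normalized log2 signal (vertical axis) of the 14 member probes on each of the 8 arrays, 1 point per array, with the mean of the 2 arrays as a black bar. Open points were not well above background. RET, GFRA4 and NRTN are high in TT (red), GDNF is measured in ORI (blue) only, apart from 1 antagomiR-375 array for A_33_P3268892, and ARTN and PSPN overlap between the control groups of both lines.

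Among the co-receptors, GFRA4, the partner of PSPN, had the largest difference between the lines with a signal on all control arrays. It read 13.28 and 13.31 in TT CTL and 4.77 and 5.06 in ORI CTL, a log2 difference of 8.38 (SE 0.320, adjusted p = 4.28e-05) or 334-fold. GFRA1, the partner of GDNF, went the other way, but its probes differed in size. A_33_P3639068 (hg19 chr10:117823896-117823955, minus strand) read 12.38 and 12.13 in ORI CTL and 8.62 and 8.49 in TT CTL, which was 13.0-fold lower in TT (log2 -3.70, SE 0.139, adjusted p = 4.07e-05). A_33_P3293336 (hg19 chr10:117816439-117816498, minus strand) read 10.68 and 9.95 against 9.66 and 9.39. Its log2 difference of -0.79 (SE 0.285) had an adjusted p of 0.103. With normexp and with the median signal this difference was -0.74 and passed. It was -0.43 without ORI replicate 1 and -1.15 without ORI replicate 2. Both GFRA1 probes were designed on NM_005264, and the groups did not overlap for either. GFRA2, the partner of NRTN, read 6.57 and 5.81 in ORI CTL and 5.47 and 5.02 in TT CTL without overlap (log2 -0.95, SE 0.463, adjusted p = 0.211). The GFRA2 difference was -0.46 with normexp, -0.57 without ORI replicate 1 and -1.33 without ORI replicate 2. GFRA3, the partner of ARTN, lay between 5.70 and 6.23 on the 4 control arrays, and the lines overlapped (log2 -0.19, SE 0.242, adjusted p = 0.659).

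Among the ligands, GDNF was measured in ORI alone of the control groups, and NRTN was higher in TT. GDNF was well above background on both ORI CTL arrays by each of its 4 probes and on 0 of the 2 TT CTL arrays by any. A_23_P167683 read 8.22 and 7.88 in ORI CTL against 2.30 and 1.97, at least 25.2-fold lower in TT, and A_24_P25544 read 7.18 and 7.06 against 1.98 and 1.93, at least 13.2-fold lower. A_32_P377880 was at least 63.6-fold and A_33_P3268892 at least 89.3-fold lower. The adjusted p of the 4 probes lay between 8.61e-06 and 0.000158. NRTN read 10.15 and 9.91 in TT CTL and 6.25 and 5.91 in ORI CTL, a log2 difference of 3.95 (SE 0.167, adjusted p = 6.04e-05) or 15.5-fold. ARTN (7.08 and 7.35 in TT, 7.38 and 6.87 in ORI) and PSPN (6.94 and 7.22 in TT, 6.98 and 7.02 in ORI) overlapped between the lines. Their log2 differences were 0.09 (SE 0.219, adjusted p = 0.830) and 0.08 (SE 0.153, adjusted p = 0.778).

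**Figure D2:**
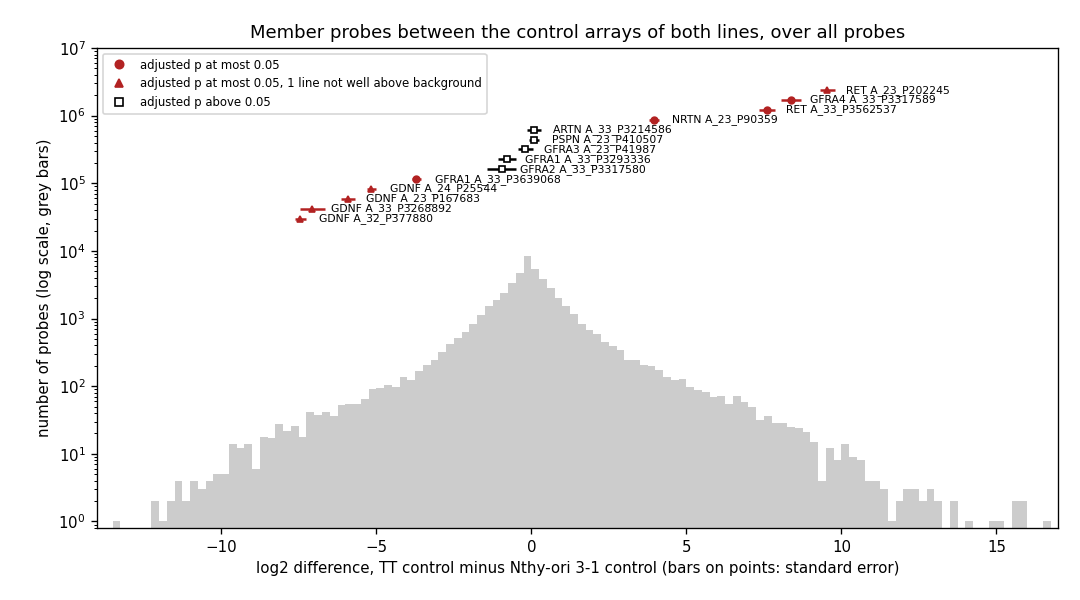
Log2 difference of TT CTL minus ORI CTL (horizontal axis) for all probes as grey bars (number of probes, log scale) and for the 14 member probes as points with their standard error, set at spaced heights for legibility. Triangles are fitted values where 1 line was not well above background and are no measured fold. RET and GFRA4 lie to the right between 7.60 and 9.55, and GDNF to the left between -7.45 and -5.16.

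Addition of miR-375 to ORI cells was the first treatment comparison, and GDNF was the member that differed most. On the pre-miR-375 arrays all 4 GDNF probes were lower than on both control arrays, by 3.26-fold to 4.62-fold. A_23_P167683 went from 8.22 and 7.88 without to 6.03 and 5.65 with pre-miR-375 (log2 -2.21, SE 0.081). A_24_P25544 went from 7.18 and 7.06 to 4.94 and 5.14 (log2 -2.08, SE 0.140). The groups did not overlap for the other probes either. A_32_P377880 (hg19 chr5:37812932-37812991, minus strand) went from 9.34 and 9.44 to 7.34 and 7.48 (log2 -1.98, SE 0.081). A_33_P3268892 (hg19 chr5:37813953-37814012, minus strand) went from 9.77 and 9.99 to 8.04 and 8.31 (log2 -1.70, SE 0.082). Both were designed on NM_001190468. The probes report on 1 gene and are not replicates.

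No GDNF probe passed the test over all probes, since the adjusted p in limma was 0.318 for each, the smallest value of any probe in this comparison. With 2 arrays a side, 0% of the 50594 probes tested passed, against 14.3% at an unadjusted p under 0.05. Of the 14 member probes, 5 had an unadjusted p under 0.05, the 4 of GDNF and that of NRTN. With 3 other ways of taking the signal the adjusted p of the 4 GDNF probes was at most 0.05, between 0.0234 and 0.0299 with normexp, 0.0432 and 0.0469 with the uncorrected median signal and 0.0366 and 0.0412 in the deposited log2 values. Their log2 differences were smaller there, between -1.73 and -1.04. By the rule of size and direction, 4 member probes, those of GDNF, were lower and 0 were higher. Over all probes 8.85% were lower and 8.38% higher by this rule. The C cell markers given above were higher on the same pre-miR-375 arrays. With 2 arrays a side, any probe that differs between these groups differs along with GDNF, and a link was not tested.

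The change of RET in ORI did not pass the test. The NM_020630 probe read 6.37 and 5.83 on the control arrays, 6.19 and 5.50 on the treated ones. The groups overlapped, although both pairs were lower (-0.17 and -0.33, mean log2 -0.25, SE 0.097, adjusted p = 0.462). The NM_020975 probe was not well above background on any of the 4 ORI arrays and gets no fold. NRTN read 6.25 and 5.91 on the control arrays, then 6.74 and 6.57 after pre-miR-375, without overlap (log2 0.58, pairs 0.49 and 0.66, adjusted p = 0.323). PSPN read 6.98 and 7.02 against 7.24 and 7.43 (log2 0.34, SE 0.096, adjusted p = 0.387), also without overlap. GFRA4 went from 4.77 and 5.06 to 3.97 and 4.93, of which the value of 3.97 was not well above background (log2 -0.46, SE 0.251, adjusted p = 0.574). The GFRA1, GFRA2, GFRA3 and ARTN probes had log2 changes between -0.12 and 0.10, and their groups overlapped.

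**Figure D3:**
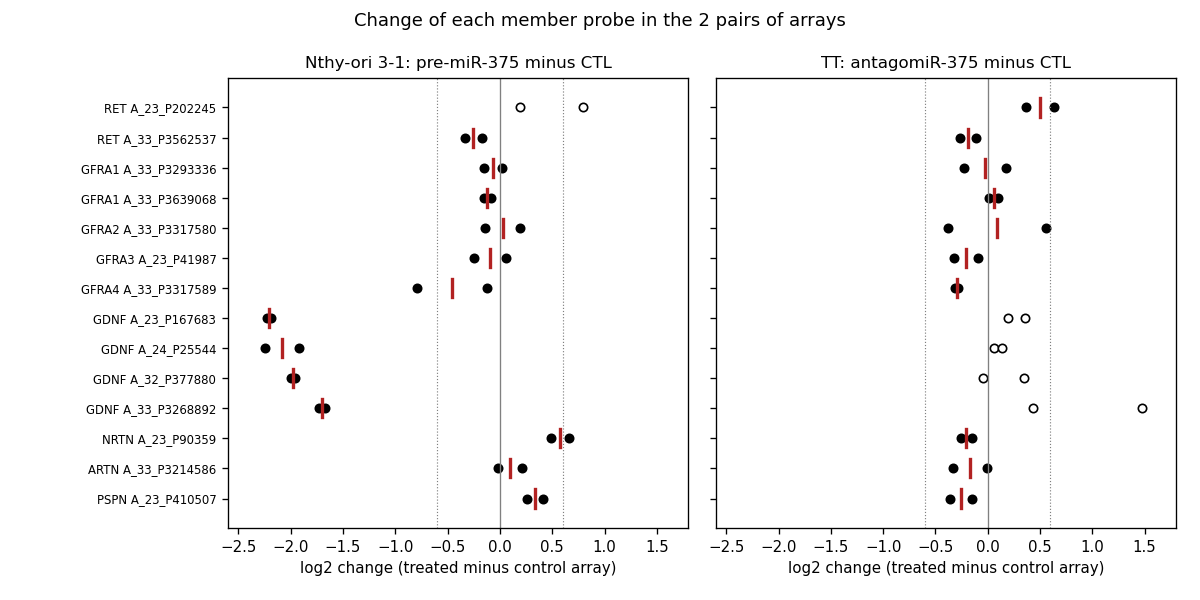
Log2 change of each member probe (rows) in the 2 pairs of arrays of ORI (left) and TT (right), treated minus control array. Points are pairs, open where the probe was not well above background on every array of either group, red bars are means and dotted lines mark 0.6 in size. The GDNF points in ORI lie between -2.24 and -1.67 and no other member passes -0.6 in both pairs.

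Inhibition of miR-375 in TT cells was the second treatment comparison. It gave 0 calls among the members and 0% of the 50587 probes tested at an adjusted p of at most 0.05. At an unadjusted p under 0.05 it gave 1 of 14 member probes, the RET probe on NM_020975, against 9.73% of all probes. By the rule of size and direction 0 members were lower, where 5.05% of all probes were, and 1 was higher, where 5.58% of all probes were. That 1 was GDNF A_33_P3268892, which was well above background on a single array of TT (3.35 and 2.30 in CTL, 3.78 and 3.77 with antagomiR-375) and gets no fold.

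The RET probes had changes of opposite sign in TT. On NM_020975 RET read 11.63 and 11.87 in CTL and 12.26 and 12.24 with antagomiR-375, without overlap, a log2 change of 0.50 (SE 0.123, adjusted p = 0.512), or 1.42-fold. On NM_020630 it read 13.62 and 13.78 in CTL and 13.51 and 13.52 with antagomiR-375, also without overlap. The log2 change was -0.19 (SE 0.098, adjusted p = 0.633). The first was higher in both pairs (0.64 and 0.37) and the second lower in both (-0.11 and -0.27). The change of the first less that of the second was 0.75 and 0.63 in the pairs, 0.69 on average, and 0.74 before normalization. This measure was chosen after the RET values were seen and is a description. An exact two-sided permutation test gave p = 0.333. That is the smallest p it can give with 2 arrays against 2, so it cannot decide. The GAACAAA word lies in the NM_020630 probe, and whether it bears on these changes was not tested. The RNA integrity number differed between the same groups, 8 in CTL and 9 with antagomiR-375, and cannot be told apart from the treatment.

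**Figure D4:**
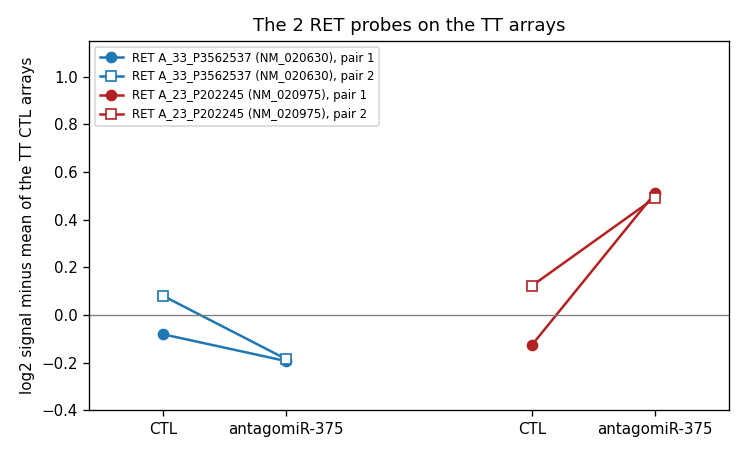
Log2 signal of both RET probes on the 4 TT arrays, less the mean of the TT CTL arrays for that probe (vertical axis), with lines joining the arrays of a pair. The NM_020975 probe (red) lies higher with antagomiR-375 in both pairs and the NM_020630 probe (blue) slightly lower.

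In order of group means, RET on the NM_020630 probe ran from TT CTL (13.70 ± 0.11, SD, n = 2) over TT with antagomiR-375 (13.51 ± 0.0059) and ORI CTL (6.10 ± 0.38) to ORI with pre-miR-375 (5.85 ± 0.49). The 2 groups of a line were neighbours, and their difference did not pass the test in either line.

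The remaining members did not pass the test in TT with antagomiR-375 either. GFRA4 went from 13.28 and 13.31 to 13.00 and 13.00, lower by 0.28 and 0.31 in the pairs (log2 -0.29, SE 0.083, adjusted p = 0.516). NRTN read 10.15 and 9.91 in CTL against 9.90 and 9.76, lower in both pairs (log2 -0.20, SE 0.090, adjusted p = 0.591). PSPN read 6.94 and 7.22 against 6.78 and 6.87, again lower in both pairs (log2 -0.26, SE 0.108, adjusted p = 0.580). NRTN and PSPN were thus higher in both pairs where miR-375 was added and lower in both pairs where it was inhibited. None of these changes passed the test or the rule of size and direction. The share of all probes with such opposite signs was not counted, so the pattern has no background to be read against. Whether the lines differ in these changes was not tested. GFRA1, GFRA2, GFRA3 and ARTN had log2 changes between -0.21 and 0.09, with adjusted p between 0.654 and 0.960. The TT groups did not overlap for GFRA4, NRTN, PSPN and ARTN, with gaps of 0.28, 0.01, 0.07 and 0.0036.

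RET passes its signal through adaptors and enzymes, some of which dock on its phosphorylated tail. The list held 24 adaptors and signal transducers, each by its brightest probe. Between the control groups 7 were higher and 6 lower in TT, and 11 did not pass, beside 14.8% of all probes higher and 15.3% lower. The list's median log2 difference was 0.02, against -0.05 over all probes. DOK6, a RET docking protein, was at least 80.8-fold higher in TT, CBLC, a ubiquitin ligase of the CBL family, at least 38.9-fold, and SHC3, an SHC adaptor of neurons, at least 14.5-fold. IRS1, the insulin receptor substrate, was at least 54.4-fold lower in TT, where it was not well above background. With pre-miR-375 in ORI, by the rule of size and direction, 2 of the 24 were higher and 2 lower. IRS1 (log2 -1.07, SE 0.081) and GRB10, an adaptor that binds receptor kinases (log2 -0.93, SE 0.089), were lower. PIK3R1, the regulatory subunit of PI3 kinase, was higher (log2 0.76, SE 0.116), as was GAB1, which was well above background on 1 pre-miR-375 array. With antagomiR-375 in TT, 3 of the 24 were higher and 0 lower, namely STAT3, a transcription factor that RET can activate (log2 0.91, SE 0.156), SHANK3, a scaffold (log2 0.84, SE 0.087), and PIK3R1 (log2 0.68, SE 0.090). None of the 24 had an adjusted p of at most 0.05 in a treatment comparison. The shares of the list were read beside 8.85% and 8.38% of all probes in ORI and 5.05% and 5.58% in TT.

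The list of other genes of the RET system held 7 (GFRAL, GDF15, NCAM1, SDC3, SORL1, GAS1 and CDH2). In TT CTL against ORI CTL 4 were higher and 1 lower, beside the same 14.8% and 15.3% of all probes. SORL1, a sorting receptor that binds GDNF and GFRA1, was higher by 4.25 (SE 0.206, adjusted p = 9.51e-05). NCAM1, which can serve as a GDNF receptor without RET, was higher by 2.64 (SE 0.268, adjusted p = 0.00131). GDF15, the ligand of the RET partner GFRAL, was higher by 2.38 (SE 0.108, adjusted p = 7.79e-05), and the adhesion molecule CDH2 by 0.87 (SE 0.165, adjusted p = 0.0128). GAS1, related to the GFRA family, was the lower one, with a signal not well above background on all arrays of either group. With pre-miR-375 SORL1 was higher in both pairs (log2 0.99, SE 0.156, adjusted p = 0.318), as was the dim GAS1, and with antagomiR-375 0 of the 7 passed the rule of size and direction, beside the shares of all probes given above.

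Of 7 transcription factors known to act on the RET gene, 1 was higher and 1 lower in TT CTL, a share near the 14.8% and 15.3% of all probes. NKX2-1, a thyroid factor, was at least 243-fold higher, and TLX2 was lower by a log2 difference of -3.48 (SE 0.353, adjusted p = 0.00129). NKX2-1 also stands among the follicular markers. With pre-miR-375 PAX3 was at least 2.83-fold higher, from a signal not well above background in CTL, and RARA, a retinoic acid receptor, was lower (log2 -0.88, SE 0.112), both with an adjusted p of 0.318 in limma. SOX10 in TT also passed the rule, as lower, but was not well above background on all arrays of either group.

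**Figure D5:**
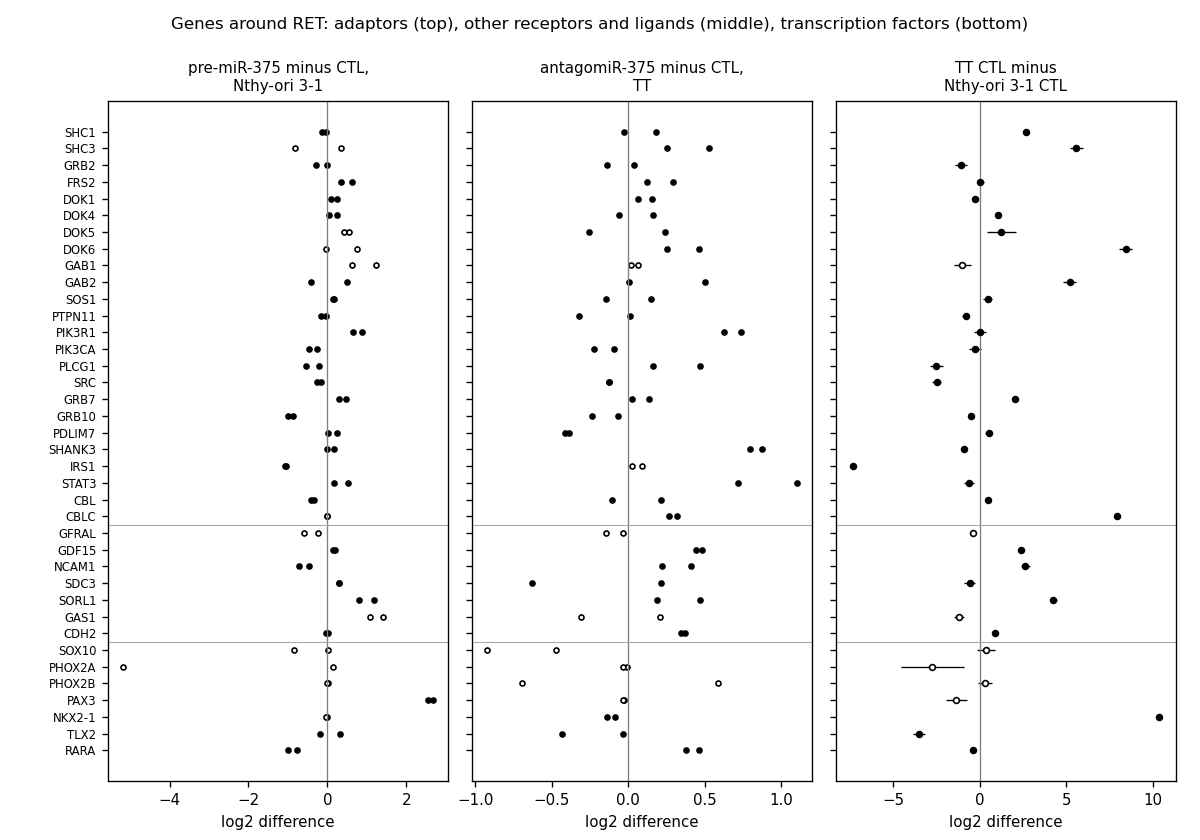
Log2 differences of the listed adaptors, other receptors and ligands, and transcription factors (rows) with pre-miR-375 in ORI, with antagomiR-375 in TT (points are pairs of arrays) and between the control groups (points with standard error). Open points had no group well above background on both arrays, and the horizontal scale differs between panels. PIK3R1 lies to the right of 0.6 in both treatment panels.

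The probes nearest in pattern to 1 of the RET probes were found from the root mean square difference to the NM_020630 probe over the 8 arrays, after subtraction of each probe's mean, among 36327 other gene names. They were DCX (0.182 log2 units), FAAH2 (0.228), PCDHA1 (0.228), LOC100130899 (0.228) and TXNDC3 (0.232), whose current symbol is NME8. Each was well above background on 4 of 4 TT arrays and 0 of 4 ORI arrays. Their ORI values are therefore background signals, so that the order of these genes has no firm base, and the second RET probe itself lay 1.05 log2 units away. DCX is a microtubule protein of migrating neurons, and its TT arrays differed from one another by less than 0.6 on the log2 scale. The likeness rests mainly on the difference between the lines.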

How the data were processed

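Total RNA (polyA RNA per the labels) was labelled with Cy3 and hybridized to Agilent 8x60K arrays. The authors deposited scanner files with a spot intensity as background-subtracted processed signal (Feature Extraction 10.10.1.1, hg19 probe positions), together with a table of log2 values, which tracked the log2 median signal (correlation of at least 0.998). The authors quantile normalized their data with limma. Here, control spots and outlier spots (341 to 428 an array) were left out, log2 of the processed intensity was averaged per probe and the 8 arrays were quantile normalized. Each line was fitted in limma 3.58.1 (R 4.3.3) with the replicate number as a block, since arrays of equal number shared 1 of 4 slides per the file headers. The deviations of same-numbered arrays correlated at 0.785 in ORI and 0.33 in TT. Lines were compared over all 8 arrays with slide as a random block (correlation 0.5). Each slide held 1 line. P-values were adjusted by Benjamini-Hochberg over all probes, with a threshold of 0.05. The probe with the highest mean stood for a gene of the lists, and up to 4 genes a list and comparison were to be named by size. The text goes past this for the follicular markers and the other receptors and ligands between the lines, where all called genes are named, chosen after their values were seen. One gene of the lists is not reported here. The members and lists were chosen with earlier results of these data known. The fit was tested on simulated data. Precision is limited by 2 arrays a group. The methods give other reagent concentrations than the labels. Exon annotation of hg19 was not used here.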

Additional observations from a re-analysis of the deposited data

How the results depend on the processing

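With pre-miR-375 in ORI, 4 member probes, those of GDNF, passed an adjusted p of 0.05 with normexp (offset 50), the median signal and the deposited log2 values, where 1560, 372 and 577 of all probes passed in place of 0. The cause was not tested. At an unadjusted p under 0.05, 5 of 14 member probes passed in ORI (4 of GDNF and that of NRTN, beside 14.3% of all probes) and 1 in TT (of RET, beside 9.73%). Under the other alternatives 0 members passed in either treatment comparison, also without the replicate block (0 in ORI and 0 in TT, over all probes too). By size and direction, 1 member was higher in ORI with 75th percentile scaling, and 0 in TT with normexp, the median signal and the deposited values. RET on the NM_020630 probe lay between -0.33 and -0.17 in ORI and -0.27 and -0.11 in TT when either pair was left out. Between the lines it lay between 7.34 and 7.87 when a slide was left out, with the slide correlation of all arrays, and over all 13 fits between 6.53 (normexp) and 7.87, with its call kept in each. GFRA4 (6.83) and NRTN (3.06) were also lowest with normexp. Without TT replicate 1 or 2, 8186 and 8585 probes passed in place of 15246. GFRA1 A_33_P3293336 passed with normexp (-0.74), the median signal (-0.74) and without ORI replicate 2 (-1.15). When a pair was left out, signs turned in ORI for GFRA1 A_33_P3293336 (-0.15 to 0.02), GFRA2 (-0.14 to 0.19), GFRA3 (-0.24 to 0.06) and ARTN (-0.02 to 0.21), and in TT for GFRA1 A_33_P3293336 (-0.23 to 0.17) and GFRA2 (-0.38 to 0.56). Signs also turned for GFRA2 in TT with the median signal (-0.0575) and the deposited values (-0.061), and between the lines when a slide was left out, for ARTN without ORI replicate 2 or TT replicate 2 (range -0.16 to 0.35), GFRA3 without TT replicate 1 (-0.42 to 0.0434) and PSPN without TT replicate 2 (-0.06 to 0.22). The deposited values and quantile normalization within a line were not run between lines. Dim probes have bounds only, and 2 arrays a group limit the tests.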
